A study of Mus musculus with 36 samples.

Results

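The genes described here are 42 genes that hepatocytes, the main cells of the liver, express strongly. They were chosen by name, as genes of plasma proteins, liver metabolism and liver regulators, and no lesion value entered the rule. Earlier results of these data were known, however, when the genes were chosen. Their whole spans, introns included, were taken from RefSeq on GRCm38, and they are 42 of the 49943 genes in which lesions were counted. Single-strand DNA breaks (SSBs) were mapped at single-nucleotide level by SSiNGLe, and abasic (AP) sites, where a base is lost from the DNA backbone, by SSiNGLe-AP. All tissues came from male C57BL/6J mice at an age of 24 months, untreated and with no engineered allele named in the labels. The tissues were bone marrow with the red cells lysed, whole brain, whole heart, whole liver, peripheral blood mononuclear cells (PBMCs) separated on Ficoll, and motile sperm of the epididymal tail. Each of the 6 tissues gave 2 samples, and each sample gave an SSB library and an AP library, so that there were 24 libraries. DNA of sperm was purified with a kit of its own. The liver powder held every cell of the organ, and the share of hepatocytes in it was not measured. In bulk DNA, more lesions in each cell cannot be told apart from more cells that carry a lesion.

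Hepatocytes make most plasma proteins, including albumin, the apolipoproteins that carry lipids, and fibrinogen, the precursor of blood clots. They also run the urea cycle, make glucose between meals, and turn cholesterol into bile acids. Genes of this kind are transcribed at high levels in the liver and at low levels in most other tissues. RNA was not analysed here, so their expression in these livers was not measured, and the tissue of a library could not be checked against RNA markers.

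The lesions of the promoters are shown first, on the sense strand from 5′ to 3′, with the sequence and the coordinates from RefSeq (GRCm38.p6). Each window holds the 250 bases before a transcription start and 50 bases after it. Capitals mark every nucleotide at which a lesion was mapped, on either strand, in any of the 24 libraries. Apob and Hpx are shown because their windows held the most lesions. Alb is shown because it passed a test between the assays, a call lost when the libraries of a sample were paired. Ass1 and Hnf4a are shown because they had the smallest unadjusted p of the 42 genes for SSBs of the liver.
Apob, chr12:7977427-7977726, plus strand: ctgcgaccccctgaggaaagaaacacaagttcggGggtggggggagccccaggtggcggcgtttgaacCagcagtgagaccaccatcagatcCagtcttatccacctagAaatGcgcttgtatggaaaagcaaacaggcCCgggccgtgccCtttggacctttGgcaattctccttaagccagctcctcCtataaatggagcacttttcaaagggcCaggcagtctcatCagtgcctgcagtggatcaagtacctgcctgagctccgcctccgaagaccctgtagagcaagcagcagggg
Hpx, chr7:105600067-105600366, minus strand: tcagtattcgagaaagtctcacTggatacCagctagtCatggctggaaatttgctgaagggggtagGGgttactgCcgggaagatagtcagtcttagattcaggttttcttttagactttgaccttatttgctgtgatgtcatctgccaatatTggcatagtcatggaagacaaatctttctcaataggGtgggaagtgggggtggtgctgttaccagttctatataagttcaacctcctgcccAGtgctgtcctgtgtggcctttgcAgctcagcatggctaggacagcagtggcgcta
Alb, chr5:90460620-90460919, plus strand: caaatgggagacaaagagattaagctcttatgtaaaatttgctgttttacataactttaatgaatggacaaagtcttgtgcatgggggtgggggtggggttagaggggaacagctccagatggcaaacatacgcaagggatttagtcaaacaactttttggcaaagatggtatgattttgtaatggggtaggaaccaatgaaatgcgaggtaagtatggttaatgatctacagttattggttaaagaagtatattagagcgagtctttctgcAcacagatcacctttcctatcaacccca
Ass1, chr2:31470020-31470319, plus strand: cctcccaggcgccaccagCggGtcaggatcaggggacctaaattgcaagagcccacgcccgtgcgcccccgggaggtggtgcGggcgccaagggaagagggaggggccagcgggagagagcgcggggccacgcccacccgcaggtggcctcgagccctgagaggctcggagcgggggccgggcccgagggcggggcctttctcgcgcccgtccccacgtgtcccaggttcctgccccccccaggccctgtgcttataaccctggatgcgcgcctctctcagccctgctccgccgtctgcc
Hnf4a, chr2:163506607-163506906, plus strand, 1 of its 2 windows: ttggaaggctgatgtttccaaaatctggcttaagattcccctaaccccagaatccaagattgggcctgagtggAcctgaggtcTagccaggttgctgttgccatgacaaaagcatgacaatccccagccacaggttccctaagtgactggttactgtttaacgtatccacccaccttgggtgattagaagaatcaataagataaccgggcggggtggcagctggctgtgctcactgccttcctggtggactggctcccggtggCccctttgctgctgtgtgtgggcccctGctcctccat

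The window of Apob held 12 lesions, 8 SSBs and 4 AP sites, of which 3 came from liver libraries. The window of Hpx held 11 lesions, 4 SSBs and 7 AP sites, and 3 came from the liver. The capitals lie scattered along both windows, and no nucleotide of either was hit more than once. The window of Alb held 1 SSB, from the liver, and no AP site. The GC-rich window of Ass1 (74.0% GC) held 1 SSB and 2 AP sites. The printed window of Hnf4a held 4 AP sites, none of them from the liver. The other window of Hnf4a, chr2:163546905-163547204, is not printed and held only SSBs, some of them from liver replicate 2. A single promoter thus carried too few lesions for a comparison of tissues.

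Windows were listed for 34 of the 42 genes, 39 windows in all, and were not listed for Apoc3, Ttr, Hp, Plg, Cps1, Arg1, Gys2 and Cyp7a1. Their GC content was 51.6%, against 53.8% over the 32817 windows of all genes. The letters TATAAA, the core of a TATA box, stood on either strand in 11 of the 39 windows (28.2%), among them those of Apob, Apoa2, Cyp1a2 and G6pc, against 13.6% of all windows. The letters GTTAAT, part of the binding site of the liver factor HNF1, stood on either strand in 10 windows (25.6%), against 7.10% of all. Among them were those of Alb, F2, Fga and Fgb, and the window of Hnf4a that is not printed. The motifs do not contain each other, and a match is a description of the sequence alone.

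The windows of the hepatocyte genes held 73 SSB positions and 110 AP positions over the 24 libraries. The SSBs lay on cytosine in 43.8% (32 positions), on guanine in 30.1% (22), on thymine in 20.5% (15) and on adenine in 5.48% (4). The AP sites lay on guanine in 39.1% (43 positions), on adenine in 37.3% (41), on thymine in 12.7% (14) and on cytosine in 10.9% (12). Over the promoters of all genes, the median share in a library was 38.5% cytosine and 5.71% adenine for SSBs, and 36.2% guanine and 38.1% adenine for AP sites. Pyrimidines were thus the more frequent site of SSBs and purines of AP sites in both. The liver lay within the range of the other tissues for each base in both assays, except that 1 of its AP libraries had the lowest share of guanine by a narrow margin (34.6%).

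**Figure D1:**
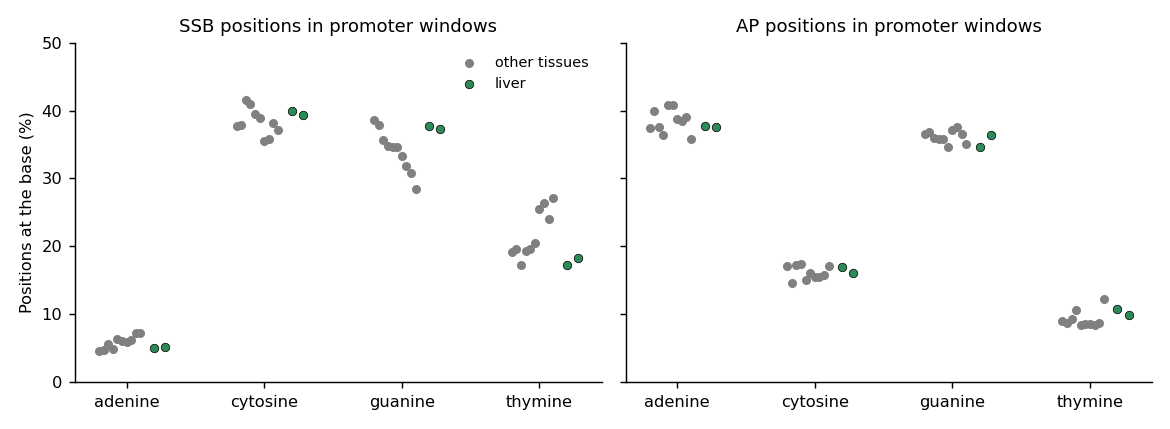
Share of lesion positions (%) on each base over the promoter windows of all genes, with SSBs on the left and AP sites on the right. Each point is 1 library (2 of the liver in green, 10 of the other tissues in grey), and adenine held 4.50% to 7.23% of SSB positions but 35.8% to 40.8% of AP positions.

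The damage level of a gene was LPKM, the number of lesion positions per kb of the gene, scaled to 1e+06 positions in the library. The libraries held 225011 to 1041983 SSB positions (median 410489) and 460719 to 963258 AP positions (median 739741). The liver was not the deepest tissue, with 446014 and 651467 SSB positions. Its AP libraries, at 486732 and 460719 positions, were both shallower than every other AP library. The next lowest was bone marrow replicate 1, at 564343. For AP sites the liver thus coincided with the lowest depth, and equal depth was among the alternatives. The 42 genes spanned 1.96 Mb in all. Dpyd alone, at 870.816 kb, made up the largest piece of it, and the shortest was Apoa1, at 1.84 kb. The genes of at least 50 kb were called long, 10 genes of 1.49 Mb in all, and the other 32 short, at 0.469 Mb. The limit fell between Ass1 at 50.401 kb and Acsm1 at 44.759 kb. All 42 genes had a position in at least 20% of the libraries of each assay. Libraries with 0 positions in a gene give an upper limit rather than an absence, and intervals of this kind cover counting error only.

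Over the whole set, the SSB density of the liver was the highest of the 6 tissues. Positions in the 42 genes were summed and divided by their summed length and by the library total. The pooled LPKM-SSB was 0.505 and 0.538 in the 2 livers. In the 10 other libraries it ranged from 0.423 to 0.501, with a median of 0.465, so that both livers lay above all of them. The margin was narrow. The lower liver and PBMC replicate 1 (0.501, on 221 positions) differed by less than the livers did from each other. The tissue means were 0.522 for the liver, 0.487 for PBMCs, 0.472 for sperm, 0.449 for bone marrow, 0.446 for brain and 0.437 for heart. The liver mean was 0.522 ± 0.024 (SD, n = 2) against 0.458 ± 0.025 (n = 10), a ratio of 1.14. Leaving out any 1 library gave a ratio of 1.10 to 1.18.

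The AP density differed less. The pooled LPKM-AP was 0.499 and 0.481 in the livers, and 0.437 to 0.485 in the other libraries, with a median of 0.457. One liver lay within the range of the other tissues. The liver mean was 0.490 ± 0.013 against 0.457 ± 0.014, a ratio of 1.07, which fell to 1.03 without Dpyd. For SSBs the ratio without Dpyd was 1.16, with 0.645 and 0.714 in the livers and a highest value of 0.649 elsewhere, so that the groups then overlapped.

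**Figure D2:**
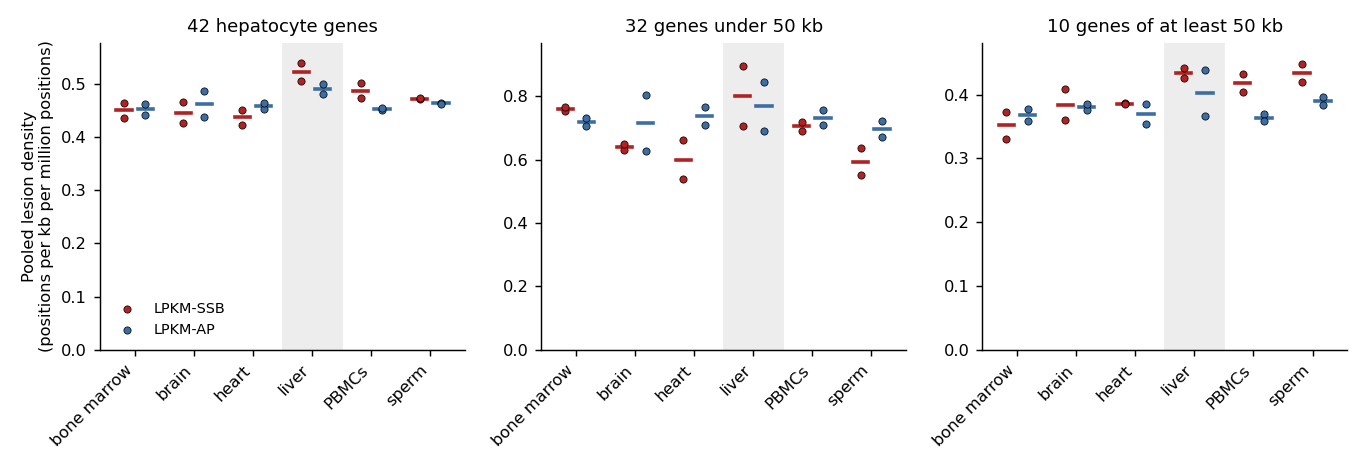
Pooled lesion density (positions per kb, scaled to 1e+06 positions in the library) by tissue, for all 42 genes, the 32 short and the 10 long genes. Each point is 1 library (SSB in red, AP in blue), bars are the means of 2 libraries, and the liver is shaded; for all 42 genes both liver SSB points (0.505 and 0.538) lie above the highest of the other tissues (0.501).

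Short and long genes were then taken apart. In the 32 short genes the pooled LPKM-SSB was 0.707 and 0.896 in the livers and 0.539 to 0.768 elsewhere (median 0.655), a ratio of 1.22. The lower liver lay inside the range of the other tissues, and the ratio was 1.07 without liver replicate 2 and 1.36 without liver replicate 1. In the 10 long genes it was 0.426 and 0.441 in the livers and 0.330 to 0.448 elsewhere (median 0.395), a ratio of 1.10. For AP sites, the ratio was 1.07 in short and 1.07 in long genes, and both groups overlapped with the other tissues. The AP ratio of the short genes fell to 0.960 without liver replicate 2, and that of the long genes to 0.977 without liver replicate 1. With the limit at 20 kb in place of 50 kb, the AP ratio was 1.09 in the 18 longer and 0.999 in the 24 shorter genes. In the longer genes the groups did not overlap, but only just. The lower liver was at 0.43999 and the highest other library at 0.43969.

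Short hepatocyte genes carried more lesions per kb than long ones in both assays. The mean LPKM-SSB over the 12 libraries was 0.683 for the short and 0.401 for the long genes, or 0.542 for the long genes without Dpyd. The mean LPKM-AP was 0.729, 0.379 and 0.518. The same order held for SSBs of all protein-coding genes, at 0.631 for the short and 0.473 for the long.

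Other gene lists were measured the same way. The further hepatocyte, cardiac muscle and blood cell lists were also chosen with earlier results of these data known. In 56 further hepatocyte genes, taken from a list of liver genes outside the 42, the pooled LPKM-SSB was 0.633 and 0.640 in the livers and 0.464 to 0.598 elsewhere, a ratio of 1.18 with no overlap. Their AP ratio was 0.991. The ratios for SSBs and AP sites were 0.990 and 0.928 in 28 cardiac muscle genes, 0.939 and 0.874 in 35 blood cell genes, and 1.0 and 0.983 in all 21887 protein-coding genes. Relative to all protein-coding genes of the same library, the SSB density of the 42 genes was 1.02 in the liver and 0.897 in the other tissues. These groups did not overlap, by a narrow margin (0.991 in the lower liver, at most 0.983 elsewhere). The relative AP density was 0.975 and 0.893, with overlap. Without Dpyd the SSB values were 1.33 and 1.15, so that both groups lay above protein-coding genes, and the groups then overlapped.

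Gene by gene, the mean LPKM-SSB of the liver lay above that of the other tissues in 28 of the 42 genes, where 48.7% of the 38486 genes tested did so. The median ratio was 1.15 for the 42 genes (1.23 for the short and 0.964 for the long), 1.16 for the 56 further hepatocyte genes and 0.988 for all genes tested. With genes that had no position in either liver set at the limit that 3 counts allow, the median of all genes became 1.05 and that of the 42 genes stayed at 1.15. For AP sites the liver mean was the higher in 24 of 42 genes, against 44.7% of the 41374 genes tested, and the median ratio was 1.04 against 0.947 (1.08 with the zeros at the limit). The liver was the tissue of the highest mean LPKM-SSB for 13 of the 42 genes, where it was for 13.7% of all genes tested, and of the lowest for 1, against 9.56% of all. For AP sites it was the highest for 11 genes, against 18.9% of all, and the lowest for 7, against 20.9%.

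**Figure D3:**
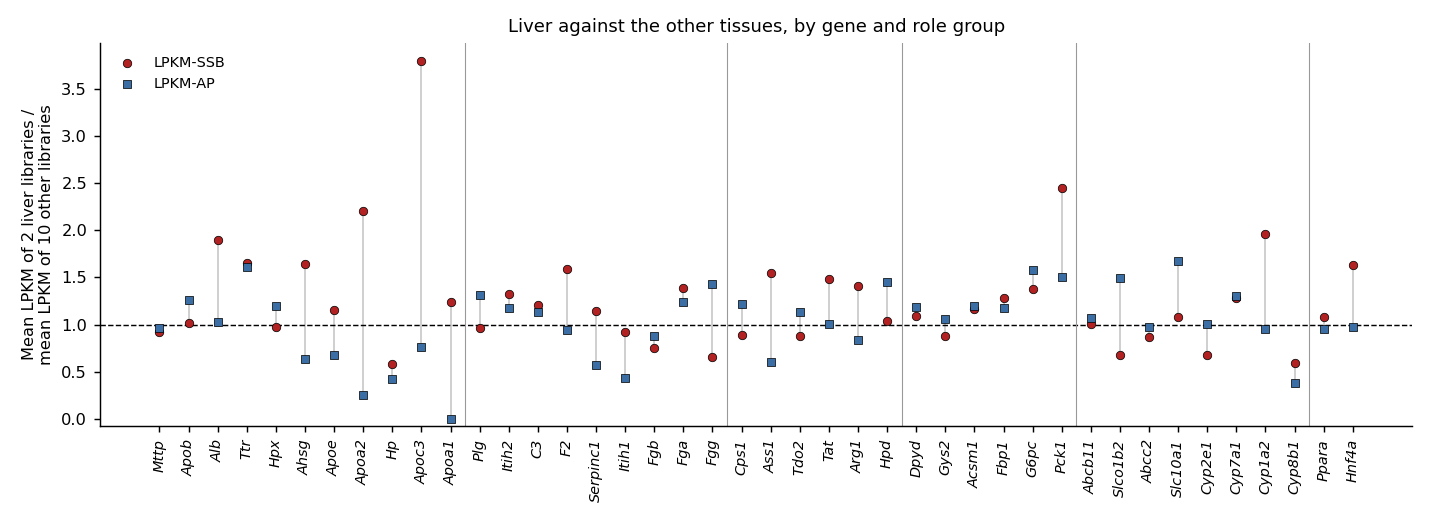
Ratio of the mean LPKM of the 2 liver libraries to that of the 10 other libraries for each of the 42 genes, with grey lines between the role groups (SSB in red, AP in blue, dashed line at 1). SSB ratios run from 0.579 (Hp) to 3.80 (Apoc3), and Apoa1 has an AP ratio at 0 because neither liver AP library held a position in it.

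Single genes were tested with edgeR's quasi-likelihood test over all genes of an assay. For SSBs of the liver against the other tissues, no gene had an adjusted p under 0.05, so 0% of the 38486 genes tested passed and 0 of the 42. At an unadjusted p under 0.05, 4 of the 42 genes were higher in the liver (Hnf4a, Ass1, Apoc3 and Apoa2), where 3.84% of all genes were, and 0 were lower, where 0.933% were. The test called 1835 genes at that unadjusted level, and DESeq2 called 0 after adjustment and 146 before it. The fitted median log2 difference was 0.37 for the 42 genes and 0.15 for all genes tested (0.33 and 0.11 when scaled by library totals alone, 0.30 and 0.06 in DESeq2). It depended on the livers, with 0.50 and 0.11 without liver replicate 1 and 0.15 and 0.05 without liver replicate 2.

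For AP sites of the liver, again 0% of 41374 genes and 0 of the 42 passed the adjusted threshold. At an unadjusted p under 0.05, 0 of the 42 genes were higher (1.79% of all) and 3 were lower (2.61% of all), namely Ass1, Itih1 and Apoa1. Over all genes 1818 reached that level, and DESeq2 called 0 after adjustment and 293 before it. The fitted median log2 difference was 0.03 for the 42 genes and -0.06 for all. Neither sign was stable, since the medians were 0.12 and 0.08 at equal depth, 0.19 and -0.02 without heart replicate 1, and -0.01 and -0.18 without liver replicate 2.

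Across the 6 tissues, 0.125% of the genes tested (48 genes) differed in SSBs after adjustment, and 0 of the 42 were among them. At an unadjusted p under 0.05 the 42 genes had 4 (Hnf4a, Dpyd, Cps1 and Ass1), against 4.85% of all genes. Hnf4a had the lowest adjusted p of the 42 in edgeR's test (0.299), and Dpyd followed at 0.538. For AP sites 0% of all genes passed after adjustment, with 1219 at an unadjusted p under 0.05 and 0 by DESeq2, which had 18 before adjustment. Among the 42 only Ass1 reached the unadjusted level, where 2.95% of all genes did.

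Whether the liver difference itself differed between SSBs and AP sites was tested as an interaction. After adjustment 0% of 41210 genes passed in edgeR, with 1933 at an unadjusted p under 0.05, and DESeq2 had 0 and 455. Of the 42 genes, 5 reached the unadjusted level (Ass1, Hnf4a, Apoa2, Apoa1 and Serpinc1), against 4.69% of all genes. The fitted median of SSBs minus AP sites was 0.25 on the log2 scale for the 42 genes and 0.23 for all genes tested. The 42 genes thus lay near the level of all genes. The fitted difference was 1.41 on the log2 scale for Ass1, with the lowest adjusted p of the 42 genes in edgeR (0.544), and 0.86 for Hnf4a (0.975). For Apoa2 and Apoa1 it rested on 1 and 0 AP positions in the livers.

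Both regulators, the nuclear receptors Hnf4a and Ppara, were long genes. Hnf4a (chr2:163506811-163572907, 66.097 kb) keeps hepatocytes differentiated. Its LPKM-SSB was 1.02 and 1.18 in the livers, on 30 and 51 positions. Elsewhere it ran from 0.471 to 1.06 with a median of 0.642. It was 1.06 and 0.641 in bone marrow, 0.544 and 0.568 in brain, 0.644 and 0.755 in heart, 0.471 and 0.495 in PBMCs, and 0.767 and 0.814 in sperm. Only bone marrow replicate 1 reached the range of the livers, and PBMCs were lowest. The ratio was 1.63 and the fitted log2 difference 0.76, with an adjusted p of 0.974 in edgeR's test. Its LPKM-AP was 0.560 and 0.788 in the livers and 0.568 to 0.881 elsewhere (median 0.705), which overlapped, at a ratio of 0.969. The noncoding genes Hnf4aos and Gm25881 share 52.8% of its span, and lesions on either strand were counted, so the values belong to the locus.

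Ppara (chr15:85734910-85806851), the receptor that turns on fatty acid oxidation, had no such difference. Its LPKM-SSB was 0.748 and 0.512 in the livers and 0.308 to 0.927 elsewhere (median 0.601). Its LPKM-AP was 0.40 to 0.634 in the livers and 0.441 to 0.636 elsewhere (median 0.530). The groups overlapped in both assays, with ratios of 1.07 and 0.952.

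Among the genes of amino acid and nitrogen metabolism, Ass1 and Cps1 encode enzymes of the urea cycle. Ass1 (chr2:31470270-31520670) had an LPKM-SSB of 1.42 and 1.16 in the livers, on 32 and 38 positions. In the other tissues it was 1.04 and 0.589 in bone marrow, 0.933 and 0.659 in brain, 1.02 and 1.01 in heart, 1.06 and 0.454 in PBMCs, and 1.06 and 0.498 in sperm, with a median of 0.971. Both livers lay above all others. The ratio was 1.55 and the fitted log2 difference 0.65 (adjusted p of 0.974, edgeR).

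For AP sites Ass1 had the opposite order. Its LPKM-AP was 0.530 and 0.646 in the livers. It was 0.984 and 0.986 in bone marrow, 1.09 and 1.06 in brain, 1.15 and 1.2 in heart, 0.654 and 0.953 in PBMCs, and 0.989 and 0.639 in sperm, with a median of 0.987. The livers lay below all others except sperm replicate 2, which fell between them. The ratio was 0.606 and the fitted log2 difference -0.76 (adjusted p of 1.0, edgeR). Neither difference of Ass1 passed the adjusted threshold.

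Cps1 (chr1:67122426-67231267) makes carbamoyl phosphate for the same cycle. Its LPKM-SSB was 0.453 to 0.508 in the livers and 0.280 to 0.762 elsewhere (median 0.566), and its LPKM-AP 0.499 to 0.642 and 0.284 to 0.534 (median 0.496). The ratios, 0.892 and 1.22, thus pointed in other directions than those of Ass1, and the groups overlapped. Tdo2, which breaks down tryptophan, had the fewest lesions of the 6 genes, with 6 SSBs in the livers and 1 to 6 in each other library, and ratios of 0.882 and 1.14. Over the 6 genes the pooled LPKM-SSB was 0.755 and 0.756 in the livers and 0.521 to 0.745 elsewhere (median 0.635), a ratio of 1.19 without overlap. The AP ratio was 0.960 with overlap. Ass1 weighed heavily on the pooled SSB ratio, with 70 SSBs in the livers and 193 in the other libraries, against 58 and 255 in Cps1. The ratio without Ass1 was not computed, so it is not shown to be a trait of the group. The liver mean was above the others in 4 of the 6 genes in each assay, against 48.7% of all genes tested for SSBs and 44.7% for AP sites.

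**Figure D4:**
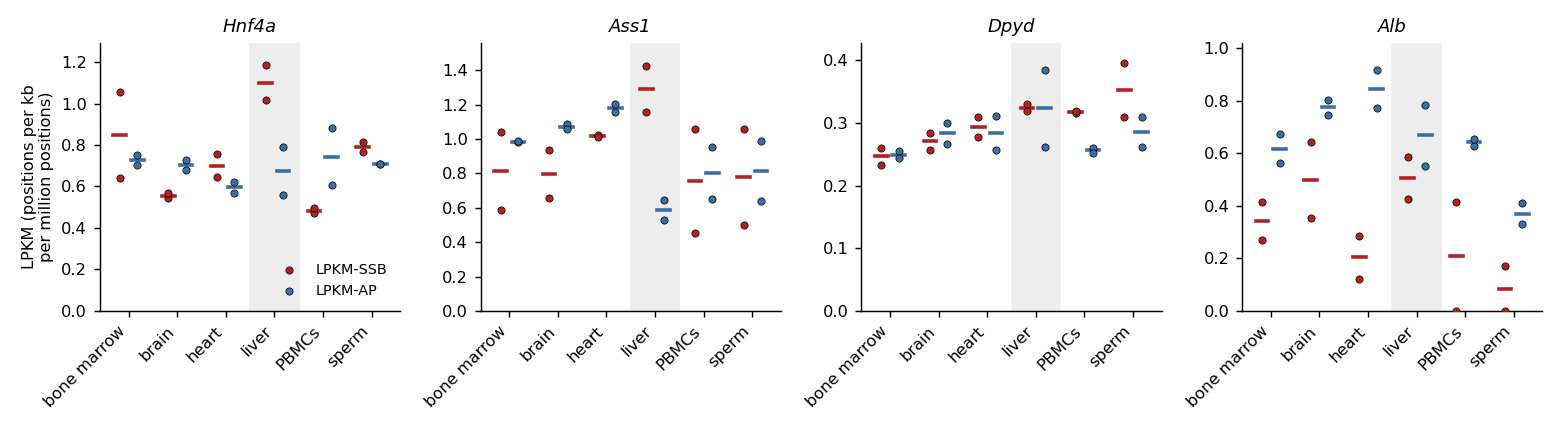
LPKM of Hnf4a, Ass1, Dpyd and Alb in each library by tissue (SSB in red, AP in blue, liver shaded, bars at the means of 2 libraries). In Ass1 the 2 liver SSB points (1.16 and 1.42) lie above all the other SSB points, while the 2 liver AP points (0.530 and 0.646) lie among the lowest AP points.

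The plasma carriers and apolipoproteins, 11 genes, were short except Mttp. Alb (chr5:90460870-90476602) encodes albumin, the most abundant plasma protein. Its LPKM-SSB was 0.428 and 0.585 in the livers. It was 0.416 and 0.269 in bone marrow, 0.352 and 0.643 in brain, 0.285 and 0.122 in heart, 0 and 0.416 in PBMCs, and 0.170 and 0 in sperm, with a median of 0.277. The zeros allow an LPKM of up to 0.847 in PBMCs and 0.684 in sperm, so they do not separate these libraries from the livers. The liver ratio was 1.90 on 9 positions against 20, and brain replicate 2 exceeded both livers.

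Alb was the only one of the 42 genes to pass the adjusted threshold between the assays. Its LPKM-AP was 0.784 and 0.552 in the livers, 0.563 and 0.672 in bone marrow, 0.746 and 0.803 in brain, 0.771 and 0.917 in heart, 0.628 and 0.654 in PBMCs, and 0.330 and 0.409 in sperm. LPKM-AP was above LPKM-SSB in 11 of the 12 tissue samples, the exception being liver replicate 2. The means were 0.652 ± 0.169 and 0.307 ± 0.208 (SD, n = 12 libraries), and the ranges overlapped. The fitted log2 difference of AP minus SSB was 1.25, with an adjusted p of 0.0372 in edgeR's test. The labels say that both libraries of a sample came from the same tissue, and with that sample as a block the adjusted p was 0.0586 in edgeR, above the threshold of 0.05. Scaled by library totals it was 0.109, and at equal depth 0.708. DESeq2, which filters genes of low counts, gave no adjusted p for Alb and thus no call. The call was also lost on leaving out any 1 of 12 of the 24 libraries, with adjusted p from 0.0516 to 0.102.

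In the same test 1.08% of all genes were higher in AP sites (445 genes) and 0.153% lower (63 genes), and of the 42 genes 1 was higher and 0 were lower. Scaled by library totals, 85 of the 166 genes called were higher. The 56 further hepatocyte genes had 1 call, C8a, which encodes a chain of complement component C8, at a log2 difference of 0.57 (adjusted p of 0.0241, edgeR). The fitted median was 0.15 over all genes and 0.14 over the 42. This shift was 0.07 and 0.06 with library totals, 0.003 and 0.06 at equal depth, and -0.004 and 0.02 in DESeq2, each of them small beside the difference of Alb. Over all 42 genes, pooled LPKM-AP divided by pooled LPKM-SSB was 0.990 ± 0.058 (SD, n = 12 tissue samples; 0.893 to 1.07). The lowest value was that of a liver, and the ratio was 1.08 ± 0.15 for the short and 0.950 ± 0.085 for the long genes.

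Apob (chr12:7977629-8016839) encodes the structural protein of low-density lipoproteins and Mttp (chr3:138089855-138143418) the protein that loads it with lipid. The LPKM-SSB of Apob was 0.743 to 0.861 in the livers and 0.343 to 1.13 elsewhere (median 0.801). That of Mttp was 0.460 to 0.745 in the livers and 0.418 to 1.02 elsewhere (median 0.646). The livers lay inside the range of the other tissues in both genes. The AP ratios were 1.26 for Apob and 0.965 for Mttp, again with overlap for Mttp, while 1 liver, at 1.38, exceeded the highest value elsewhere of 1.29 for Apob.

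The small apolipoproteins rested on few positions. Apoc3 (chr9:46233050-46235636), which slows the clearance of triglycerides, held 6 and 4 SSBs in the livers and 0 to 6 elsewhere (12 in all, median 1). Its fitted log2 difference was 1.90 with an adjusted p of 0.974 in edgeR's test, and its LPKM-SSB of 2.37 and 5.20 in the livers overlapped with a highest value elsewhere of 3.44. Apoa1 (chr9:46228630-46230469), the main protein of high-density lipoproteins and its near neighbour, held 0 and 5 SSBs in the livers and 0 to 7 elsewhere. It held 0 AP sites in both livers and 0 to 5 elsewhere (24 in all), which allows an LPKM-AP of up to 3.35 and 3.54 in the livers, above the median of 1.55 elsewhere. Apoa2 was named after its values were seen, since it was among the genes at an unadjusted p under 0.05. It held 2 and 8 SSBs in the livers and 0 to 7 elsewhere, and shares 19.7% of its span with Tomm40l. Over the 11 genes the pooled SSB ratio was 1.2 and the pooled AP ratio 0.985, both with overlap. The liver mean was the higher in 8 of the 11 genes for SSBs and 4 for AP sites, against 48.7% and 44.7% of all genes tested.

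Among the 9 genes of coagulation, complement and protease inhibition, the liver was the higher in 5 in each assay. Of all genes tested, 48.7% were so for SSBs and 44.7% for AP sites. The pooled ratios of the 9 genes were 1.13 for SSBs and 1.02 for AP sites with overlap. Plg (chr17:12378609-12419384) encodes plasminogen, the precursor of the enzyme that dissolves clots. Its LPKM-SSB was 0.550 to 0.791 in the livers and 0.520 to 0.950 elsewhere (median 0.654). Its LPKM-AP was 1.01 and 0.958 in the livers and 0.535 to 0.954 elsewhere (median 0.758), so that both livers lay just above all others, at a ratio of 1.31. Fgg, a chain of fibrinogen, held 0 and 4 SSBs in the livers, where the 0 allows an LPKM-SSB of up to 0.917, and 0 to 4 elsewhere. Itih1 (chr14:30929180-30943289), a heavy chain of a protease inhibitor that binds hyaluronan, held 5 and 1 AP sites in the livers and 5 to 19 elsewhere (median 12). Its fitted log2 difference for AP sites was -1.2 (adjusted p of 1.0, edgeR), and leaving out 1 library moved it between -2.70 and -0.47.

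Both livers lay above all 10 other libraries in LPKM-SSB for 2 of the 42 genes, Ass1 and F2, where 1.35% of all genes tested did so, and below them for 0, where 0.452% did. F2 (chr2:91612397-91636457), which encodes prothrombin, was named for this reason after its values were seen. Its LPKM-SSB was 0.745 and 0.638 in the livers, on 8 and 10 positions, and 0.136 to 0.634 elsewhere (median 0.488). The lower liver and bone marrow replicate 1 differed by less than the livers did from each other, and 34.4% of the span is shared with Ckap5. For LPKM-AP both livers lay above all others in 2 genes, Plg and Slco1b2, against 2.16% of all genes, and below in 0, against 2.29%.

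The 6 genes of glucose, fatty acid and pyrimidine metabolism were dominated by Dpyd (chr3:118562109-119432924), the first enzyme of pyrimidine breakdown. It was the best measured gene, with 1429 SSBs and 2115 AP sites in all. Its LPKM-SSB was 0.330 and 0.319 in the livers, 0.260 and 0.234 in bone marrow, 0.257 and 0.284 in brain, 0.309 and 0.278 in heart, 0.316 and 0.319 in PBMCs, and 0.309 and 0.396 in sperm. Bone marrow was lowest and sperm replicate 2 highest, and the livers lay near PBMCs. Its LPKM-AP was 0.385 and 0.262 in the livers and 0.244 to 0.311 elsewhere (median 0.261), so that 1 liver exceeded all others and the other lay at their median. The ratios were 1.09 and 1.19. G6pc, which releases free glucose from the liver, had the fewest lesions of the group, with 6 SSBs and 8 AP sites in the livers and ratios of 1.38 and 1.58 that rested on them. The liver mean was above the others in 5 of the 6 genes for SSBs and in 6 for AP sites, against 48.7% and 44.7% of all genes tested. The pooled ratios were 1.12 and 1.19, with overlap in both.

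Along Dpyd, lesions were counted in bins of 50 kb. The density was highest in the bin centred 825 kb from the start, near the end of the gene, at an LPKM-SSB of 0.645 in the liver and 0.588 in the other tissues, and an LPKM-AP of 0.606 and 0.473. It was lowest for SSBs in the bin at 225 kb, at 0.106 and 0.135. The first bin differed most between the groups for SSBs, at 0.477 in the liver and 0.256 elsewhere, but the other libraries ranged from 0 to 0.502 in it. For SSBs, the liver had its highest and its lowest bin where the other tissues had theirs.

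**Figure D5:**
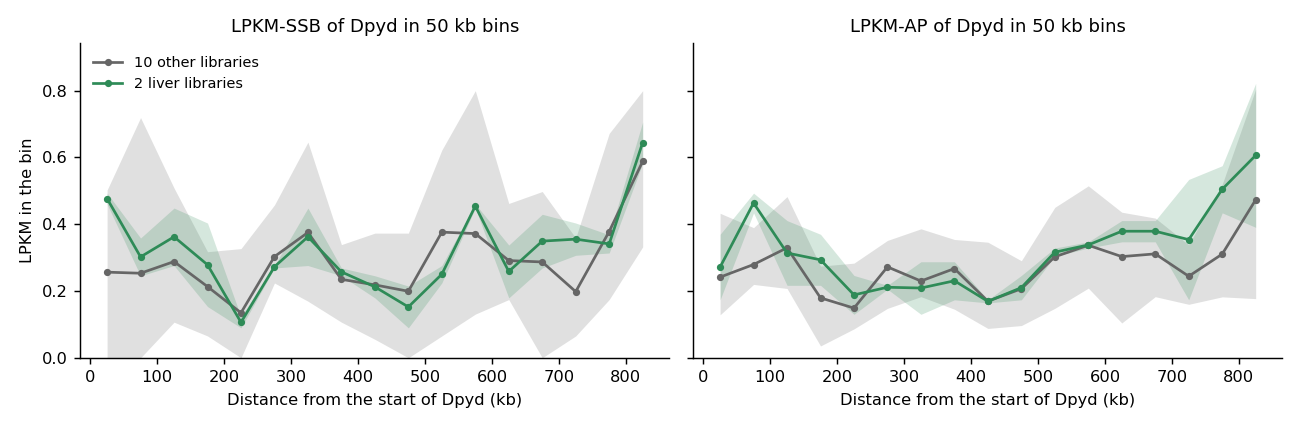
LPKM of Dpyd in bins of 50 kb by distance from its start (kb), for SSBs and AP sites. Lines are the means of the 2 liver libraries (green) and the 10 other libraries (grey), and bands run from the lowest to the highest library; the last full bin holds the highest means in each assay, and the grey band covers most of the green one.

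The 8 genes of the cytochromes P450 and of bile acid synthesis and transport had the lowest SSB ratio of the groups, 0.931, with 0.420 and 0.426 in the livers and 0.358 to 0.588 elsewhere, and an AP ratio of 1.12. The liver mean was the higher in 4 of the 8 genes for SSBs and 5 for AP sites, against 48.7% and 44.7% of all genes tested. Abcb11 (chr2:69238282-69342616), the pump that exports bile salts, had an LPKM-SSB of 0.309 to 0.408 in the livers and 0.203 to 0.511 elsewhere (median 0.360). Abcc2 (chr19:43782308-43838332), which exports conjugated bilirubin, had one of 0.521 to 0.60 in the livers and 0.360 to 0.973 elsewhere (median 0.657). The livers lay inside the range of the other tissues in both genes, with ratios of 1.01 and 0.867 for SSBs and 1.07 and 0.977 for AP sites. Slco1b2 (chr6:141629452-141686646), an importer of bile acids and bilirubin, had an LPKM-AP of 0.323 and 0.342 in the livers, on 9 positions each, and 0.148 to 0.303 elsewhere (median 0.215), while its SSB ratio was 0.678. Cyp8b1, the sterol hydroxylase that sets the kind of bile acid made, is a gene of 1.95 kb and held 2 SSBs and 1 AP site in the livers.

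Genes were also set against their surroundings. The density in the 42 genes divided by that of the 50 kb on either side was 0.914 for SSBs in the liver and 0.855 elsewhere, and 0.956 and 0.860 for AP sites, with overlap in both assays. Dpyd alone put these values below 1. Without it they were 1.18 and 1.08 for SSBs and 1.2 and 1.13 for AP sites, again with overlap. Over the 12 libraries the short genes lay above their flanks, at 1.24 ± 0.14 for SSBs and 1.36 ± 0.10 for AP sites. The 10 long genes gave 0.777 ± 0.067 and 0.748 ± 0.084, but without Dpyd the other 9 gave 1.01 ± 0.077 and 0.977 ± 0.080, near the level of their flanks. Dpyd set against its own flanks gave 1.02 ± 0.36 and 0.986 ± 0.23, so it was not below them. It holds most of the length of the long genes but the flanks of only 1 gene.

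Start and end windows, which reached 1 kb to either side of the gene start or end, were summed over the 34 genes with a known strand. At the gene end, the LPKM-SSB was 0.993 and 1.22 in the livers and 0.436 to 0.961 elsewhere (median 0.670), a ratio of 1.68 without overlap, on 7 to 46 positions in a library. With windows of 5 kb to either side the ratio was 1.27, also without overlap. At the gene start the SSB ratio was 1.36, with 1 other library above the lower liver. The AP ratios were 1.05 at the end and 1.14 at the start, both with overlap. Such windows were not summed over all genes. Whether the ratios of these windows are particular to the hepatocyte genes was thus not tested. Lesions lay on the template strand in 46.5% ± 0.92 of SSBs in the liver and 48.4% ± 3.1 elsewhere, and in 48.4% ± 4.9 and 48.2% ± 2.2 of AP sites, so that no difference beyond the spread of the libraries was seen.

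The nucleotides hit were nearly all distinct. The 42 genes held 12846 distinct lesion nucleotides, of which 190 (1.48%) were found in more than 1 library and 47 in both assays. In 3 libraries each were 6 nucleotides, 1 each in Abcb11, Apob, Fbp1, Hpd, Ppara and Tdo2, and none was found in more. The recurrent nucleotide of Ppara, at position 85795930 of chromosome 15, was seen in 2 SSB libraries and 1 AP library, 1 of the 3 from the liver.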

How the data were processed

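Lesion positions of the 24 libraries were analysed, with tissue and replicate from the sample titles and source names. For each library the authors deposited a list of single-nucleotide positions with strand and raw counts, made by their own code from sequencing reads, without normalization and without pooling of replicates. The submitters' processing notes name the build GRCm38. The aligner is not given in the sources used here. Each listed position was counted once, on either strand, over the whole span of each of 49943 genes of RefSeq on GRCm38, and a position in overlapping genes was counted for each. LPKM was the position count over gene length in kb, scaled to a library of 1e+06 positions. Pooled densities used the sums over the genes of a list, and no test was made on them.

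Position counts per gene were tested with edgeR 4.0.16 in R 4.3.3 (TMM, quasi-likelihood, Benjamini-Hochberg adjustment over all genes with a position in at least 20% of the libraries, threshold 0.05), with DESeq2 1.42.0 as an alternative. All libraries of an assay, or of both for the assay and interaction tests, entered the fit, with tissue and assay as terms. The labels name 2 mice, so that p-values measure the spread between these samples. The labels do not say that a replicate number marks the same mouse in every tissue, so it was not taken to pair tissues. Same-numbered samples of different tissues deviated with a correlation of -0.01 to 0.04 for SSBs and -0.22 to 0.16 for AP sites (4333 genes). The SSB and AP libraries of a sample are paired by the labels, and their correlation was only -0.02 to 0.03. Such a correlation thus cannot show whether samples are paired. Replicates shared at most 0.396% of their positions, so none was counted as a repeat. The SSB libraries held 225011 to 1041983 positions and the AP libraries 460719 to 963258, and 0.140% to 1.23% of SSB positions and 0.340% to 0.929% of AP positions carried a count above 1. Other alternatives were library totals, other filters, summed counts, equal depth, a replicate block, leaving out tissues or libraries, other size limits, flanks and windows, and, chosen after seeing the data, density relative to protein-coding genes and the flank ratio of the long genes without Dpyd.

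The test was tested on simulated data with 200 changed genes. At 2-fold and a mean of at least 20 positions, edgeR recovered 98.5% of them for the SSB liver comparison and 81.0% for AP sites. At 4-fold and a mean of at least 1 position it recovered 85.0% and 68.0%. For AP against SSB at 2-fold and a mean of at least 5 positions it recovered 96.0%, and 9.00% of the calls were false. All genes of a simulation had the same dispersion, the median fitted value (0.00248 for the SSB and 0.00659 for the AP liver comparison). Genes of wider spread were not simulated, so the shares recovered do not cover them.

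The 42 genes and the lists compared with them were chosen with earlier results of these data known. Genes were named in full by a rule: the 10 with the most SSB positions, those passing a test, the 3 of smallest p in each liver comparison, and the most and least hit of each role group. Other genes were named after their values were seen. Python 3.11.15 with pandas 2.3.3, NumPy 2.4.6, SciPy 1.17.1 and Matplotlib 3.10.9 was used.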

Additional observations from a re-analysis of the deposited data

How the results depend on the processing

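No alternative gave a call for any of the 42 genes in the liver, 6-tissue or interaction tests, and the pooled SSB ratio of the 42 genes stayed between 1.10 and 1.18. The adjusted p over all settings ran from 0.644 to 1.0 for Hnf4a and 0.920 to 1.0 for Ass1 in SSBs of the liver, and from 0.322 to 1.0 for Ass1 in the interaction. For Alb in AP against SSB it ran from 0.0209 to 0.708, and 16 of 31 settings kept the call. The number of genes called across the 6 tissues for SSBs, 48, became 15 with library totals only, 31 with no filter, 16 with summed counts, 9 at equal depth, 3 without bone marrow, 7 without sperm and 4 with DESeq2. Summed counts gave 1 call in the interaction test. For AP against SSB, 508 calls became 166 with library totals, 10 at equal depth, 84 with DESeq2 and 307 with the tissue sample as a replicate block. With the replicate number as a block, which is a shared number only, the SSB count over 6 tissues was 59, and it was 0 for the liver tests of SSBs and AP sites, for AP sites over the 6 tissues and for the interaction. The cause of these changes was not tested. The SSB ratio of gene to flanks was 1.01 with flanks of 20 kb, that of the end window 1.27 with 5 kb, and the pooled AP ratio 1.03 without Dpyd. Over the long genes, the SSB ratio was 0.964 as a median over genes, and the AP ratio 0.990 without Dpyd and 1.18 with the limit at 100 kb.

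Leaving out each library in turn gave 4 to 65 genes for SSBs over the 6 tissues, 0 to 1 for AP sites of the liver, 0 to 2 for AP sites over the 6 tissues and 329 to 504 for AP against SSB. For SSBs over the 6 tissues it was 4 without bone marrow replicate 1, 21 without bone marrow replicate 2, 16 without brain replicate 2, 17 and 24 without heart replicates 1 and 2, 12 without liver replicate 1, and 7 and 15 without sperm replicates 1 and 2. The 329 for AP against SSB was without SSB bone marrow replicate 1. For AP sites, the liver test had its 1 call without bone marrow replicate 2, liver replicate 2 or sperm replicate 1, and the 6-tissue test its 2 without liver replicate 2, none of them in the 42 genes. The AP ratio of the template strand share ran from 0.932 to 1.08, that of gene to flanks from 1.02 to 1.2, and the SSB ratio of the end window from 1.51 to 1.85. With 2 livers an assay, and 1 to 10 positions of most short genes in a library, the depth limits what can be seen in a single short gene.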
